A study of Rattus norvegicus with 4 samples.

Results

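The genes described are the metallothioneins Mt1, Mt2A and Mt3, their transcriptional regulator Mtf1, and the ZnT transporters Slc30a1, Slc30a2 and Slc30a8. The ZIP transporters Slc39a4 and Slc39a5 are described too, with Slc39a4l, a symbol that stands in the authors' tables. All were chosen by name, with earlier results of these arrays known, so their values are given as a description with no test. The 10 genes had 11 probes among the 30367 gene probes of the array, which carry 26541 distinct names. Mt2A had 2 probes and every other gene had 1.

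Pancreas was taken from male Sprague-Dawley rats fed for 3 weeks on a purified diet that was iron deficient (FeD, 5 ppm iron), iron adequate (FeA, 35 ppm) or iron overloaded (FeO, 20275 ppm), with the iron contents as the sample labels give them. The rats were weanlings, all diets had extra sucrose, and the tissue was harvested after an overnight fast. RNA of 6 rats per diet was combined into 1 pool, and the FeD pool (arrays 1 and 2) and the FeO pool (arrays 3 and 4) were each hybridised together with the FeA pool. The diet pool carried Cy5 on arrays 1 and 3 and Cy3 on arrays 2 and 4, so the arrays of a comparison repeat the labelling of the same RNA and their SD (n = 2 arrays) measures technical spread only. Each comparison asks how the diet pool differs from the FeA pool, and both use the same FeA pool.

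Metallothioneins are small cysteine-rich proteins that bind zinc and copper, and their genes are switched on when the zinc sensor MTF-1, the product of Mtf1, binds metal response elements in their promoters. ZnT proteins move zinc out of the cytosol, across the plasma membrane or into vesicles, and ZIP proteins move it into the cytosol. In the pancreas, acinar cells secrete zinc with the digestive enzymes, and beta cells store insulin with zinc.

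The promoters of 4 of the genes are shown because in FeO Mt1 and Mt2A had the lowest ratios of the group and Slc30a2 the highest, and Slc30a1 is a textbook target of MTF-1. Each line holds the 250 bases before the transcription start in RefSeq, on the build GRCr8 and on the gene's strand, 5′ to 3′. Capitals mark matches to the metal response element core on either strand, searched as TGCACNC and TGCGCNC. The patterns differ in 1 base, so no site counts for both on 1 strand, while matches on opposite strands may overlap. The windows are chr19:10832976-10833225 (minus strand) for Mt1, chr19:10838709-10838958 (minus strand) for Mt2A, chr13:106021769-106022018 (plus strand) for Slc30a1 and chr5:151843201-151843450 (plus strand) for Slc30a2, where RefSeq lists 2 starts and the first is shown.
Mt1: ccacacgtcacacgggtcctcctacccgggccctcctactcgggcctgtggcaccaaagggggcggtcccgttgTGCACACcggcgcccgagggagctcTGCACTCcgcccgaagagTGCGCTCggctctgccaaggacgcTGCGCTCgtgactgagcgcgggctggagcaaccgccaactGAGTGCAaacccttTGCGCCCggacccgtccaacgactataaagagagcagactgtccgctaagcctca
Mt2A: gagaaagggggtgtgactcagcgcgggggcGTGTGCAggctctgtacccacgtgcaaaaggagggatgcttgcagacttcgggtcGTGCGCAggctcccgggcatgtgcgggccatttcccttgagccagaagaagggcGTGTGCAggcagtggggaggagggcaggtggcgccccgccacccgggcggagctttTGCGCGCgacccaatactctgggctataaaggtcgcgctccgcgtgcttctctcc
Slc30a1: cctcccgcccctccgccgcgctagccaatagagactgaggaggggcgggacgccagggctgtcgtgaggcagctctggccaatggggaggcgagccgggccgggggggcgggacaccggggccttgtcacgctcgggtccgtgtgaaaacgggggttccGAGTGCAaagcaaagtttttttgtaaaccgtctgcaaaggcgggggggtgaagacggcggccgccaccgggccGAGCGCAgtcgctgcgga
Slc30a2: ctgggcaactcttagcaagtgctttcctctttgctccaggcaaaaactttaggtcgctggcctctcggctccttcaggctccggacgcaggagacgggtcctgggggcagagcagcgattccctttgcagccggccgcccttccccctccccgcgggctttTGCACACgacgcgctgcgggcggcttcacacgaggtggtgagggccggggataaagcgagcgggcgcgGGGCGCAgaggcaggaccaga

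The Mt1 window held 6 matches, 5 of them on the strand of the gene, and 0.0269% of the 33469 promoter windows in the table held at least as many. Mt2A held 4, a number reached in 0.266% of windows, and Mt3 held 3, reached in 1.17%. The windows of Mtf1, Slc30a1 and the first start of Slc30a2 held 2 each, reached in 4.9% of windows. The second start of Slc30a2 and the start of Slc39a5 held no match, whereas 20.6% of all windows held at least 1. A match is only a run of letters, and the arrays did not measure binding of MTF-1. Mt1, Mt2A, Mt3 and Mt4 follow each other in this order as neighbouring protein-coding genes on chromosome 19. Of these, Mt4, known from stratified epithelium, did not pass the background filter in either comparison.

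**Figure D1:**
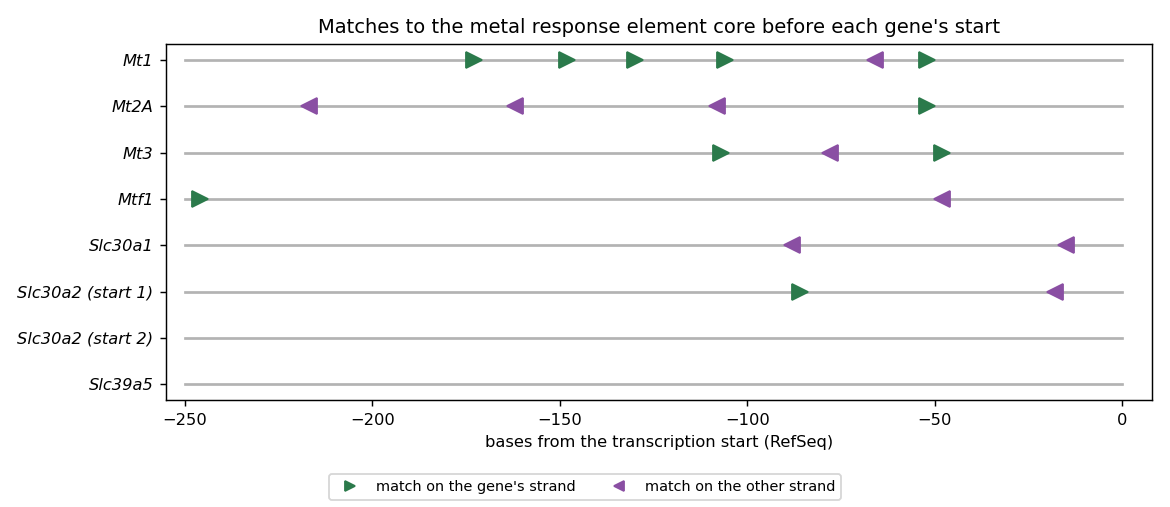
Positions of metal response element core matches (triangles, pointing along or against the gene) in the 250 bases before the start, on the horizontal axis in bases from the start, for the 7 genes with a promoter entry. Mt1 has 6 matches and Mt2A 4, Mt3 has 3, and the rows under it have 2 or none.

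In the FeO pool, Mt1 and Mt2A signals were about 4-fold lower than in the FeA pool, whereas those of Slc30a2, the vesicular zinc transporter ZnT2, were 2.50-fold higher and those of Slc39a4l 2.06-fold higher. In the FeD pool the same metallothioneins were lower by a smaller amount, 1.20-fold for Mt1 and 1.36-fold to 1.61-fold for Mt2A, and Slc30a2 (1.82-fold) and Slc39a4l (2.22-fold) were higher. For these 4 genes the signals were compared over all arrays, and no diet value overlapped the range of the 4 FeA values. The same held for Mt3, at the edge of detection, in both diets, and for Mtf1, below background, in FeO. The share of all probes that separate in this way was not counted, so nothing is read from it. Slc30a1, Slc30a8, Slc39a4 and Slc39a5 overlapped FeA in both comparisons by these ranges, which set aside the pairing of pools within an array. Within arrays, Slc39a4 was below FeA on both arrays of each diet. Slc39a5 was above FeA on both FeD arrays and below it on both FeO arrays, and Slc30a1 was below FeA on both FeD arrays. In pooled tissue, fewer cells of a type cannot be told apart from less RNA per cell.

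By the size criterion of a mean log2 ratio of 2 with the same sign on both arrays, 2 of the 9 genes that passed the background filter were lower in FeO, Mt1 and Mt2A, beside 0.134% of all 16448 genes tested. None was higher in FeO (0.0608% of all genes), and in FeD none was higher (0.0191% of 15748 genes) or lower (0.0889%). At a log2 ratio of 1, Slc39a4l was higher in FeD (0.127% of genes, and 0.248% were lower), and Slc30a2 and Slc39a4l were higher in FeO (0.663% of genes, and 0.505% were lower). Since the genes were chosen with these values known, nothing is read from the counts. Neither metallothionein reached 2 on array 4 alone, where Mt1 was at -1.80 and the Mt2A probes were at -1.79 and -1.73. With median centring in place of loess the means in FeO were -1.85 for Mt1 and -1.86 and -1.91 for Mt2A, which also ended the count. Over all probes that passed, the median log2 ratio was 0.0095 in FeD and 0.015 in FeO, and the median gap between the 2 arrays was 0.225 and 0.234.

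**Figure D2:**
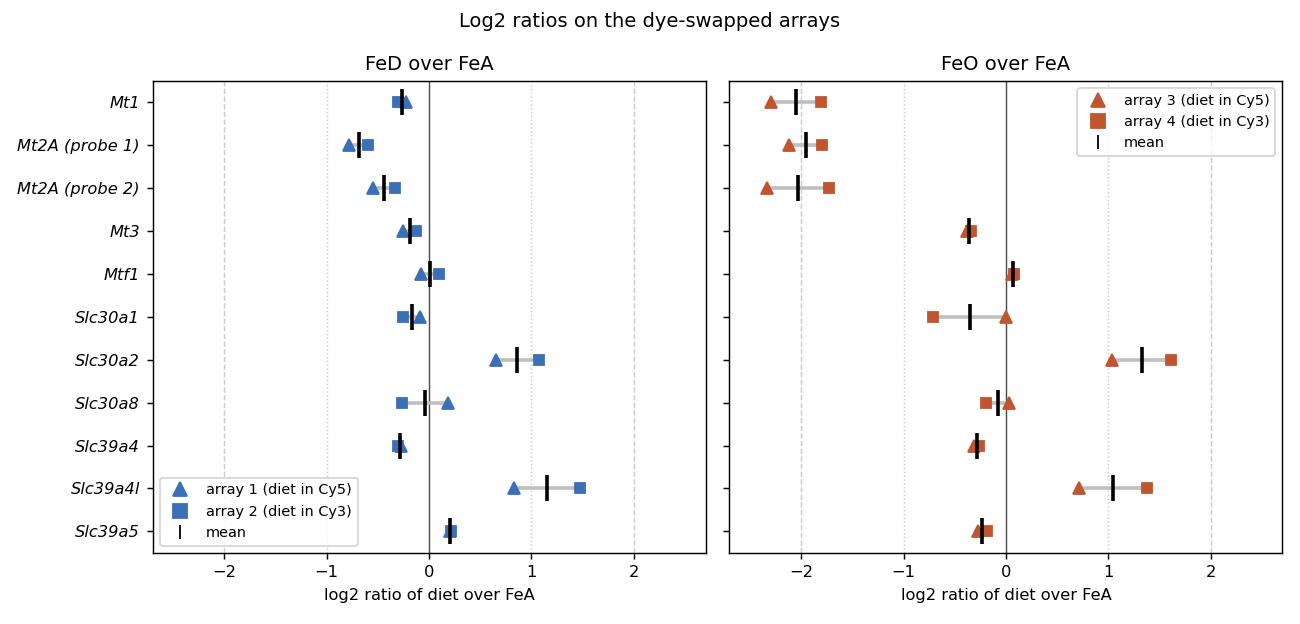
Log2 ratio of the diet pool over the FeA pool (horizontal axis) for the 11 probes, with FeD on the left and FeO on the right. Triangles and squares are the 2 dye-swapped arrays, black ticks their mean, and dashed and dotted lines mark log2 ratios of 2 and 1. Mt1 and both Mt2A probes lie near -2 in FeO, and Slc30a2 and Slc39a4l lie to the right of 0 on all arrays.

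Mt1 encodes metallothionein 1, the isoform most used as a readout of zinc. On the log2 scale of normalised signal, FeA gave 15.17, 15.18, 15.25 and 15.28 on arrays 1 to 4, FeD gave 14.95 and 14.88, and FeO gave 12.96 and 13.48. The FeO values thus stood apart from all others, while the FeD values lay just under the lowest FeA value. The log2 ratios were -0.22 and -0.30 in FeD, with a mean of -0.26 ± 0.056 (SD, n = 2 arrays). In FeO they were -2.29 and -1.80, with a mean of -2.05 ± 0.35 (SD, n = 2 arrays), which is 4.14-fold lower. Counted from the lowest, Mt1 ranked 20 of 16448 genes in FeO and 635 of 15748 in FeD. No spot of the 10 genes was saturated on any array, so the bright Mt1 signal was within the range of the scanner.

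Mt2A encodes metallothionein 2, which is induced together with metallothionein 1. Its first probe, printed in 10 spots, read 12.79, 12.77, 12.83 and 12.79 in FeA, 12.01 and 12.18 in FeD, and 10.71 and 10.996 in FeO. Its second probe, a single spot, read 13.47, 13.36, 13.70 and 13.40 in FeA, 12.92 and 13.02 in FeD, and 11.37 and 11.67 in FeO. On both probes the order was FeA, FeD, FeO from high to low, with no overlap between any 2 pools. The log2 ratios of the first probe averaged -0.69 ± 0.14 in FeD and -1.95 ± 0.23 in FeO (SD, n = 2 arrays), or 1.61-fold and 3.88-fold lower. Those of the second averaged -0.44 ± 0.15 and -2.03 ± 0.43 (SD, n = 2 arrays), or 1.36-fold and 4.09-fold lower, so it was the second probe that passed the size of 2. By that probe Mt2A ranked 21 from the lowest in FeO, next to Mt1, and 203 in FeD.

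The repeated spots of the first Mt2A probe show how tight the measurement was within an array. In FeO its 10 spots ranged from -2.30 to -1.80 on array 3 (SD 0.155) and from -2.02 to -1.54 on array 4 (SD 0.170). In FeD they ranged from -0.998 to -0.56 over 10 spots on array 1 and from -0.79 to -0.42 over 8 spots on array 2, the other spots being marked as outliers by the scanner software. Every FeO spot lay below every FeD spot. In FeO the array with the diet in Cy5 gave the lower ratio for Mt1 and both Mt2A probes. In FeD this held for the Mt2A probes (-0.78 against -0.59 and -0.55 against -0.34) but not for Mt1 (-0.22 against -0.30). With 1 array per dye order, dye and array cannot be told apart.

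**Figure D3:**
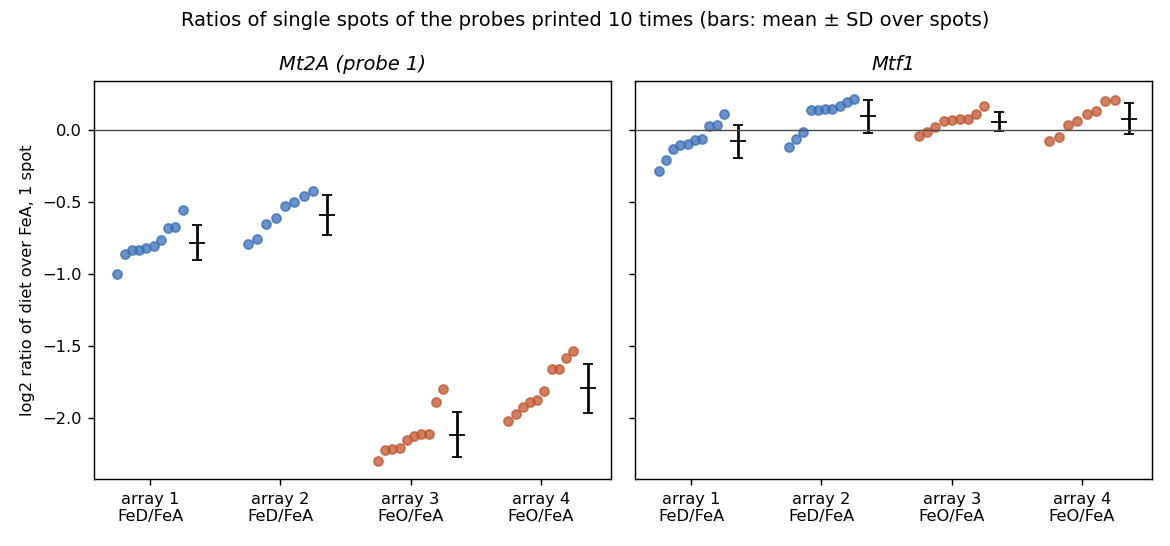
Log2 ratio of single spots (points) on each array for the first Mt2A probe and the Mtf1 probe, the members printed in 10 spots, with the mean and SD over spots beside them. The Mt2A spots of the FeO arrays lie between -2.30 and -1.54, and those of the FeD arrays between -0.998 and -0.42.

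Mt3, the metallothionein best known from neurons, was at the edge of detection. It was well above background in FeA on all 4 arrays, at 6.50, 6.56, 6.55 and 6.56, and not well above background in FeD (6.25 and 6.44) or FeO (6.16 and 6.22). Its passing the filter therefore rests on the FeA pool. Taken against the signal of the dimmer pool or the dimmest detected signal, FeD was 1.14-fold lower and FeO 1.27-fold lower on the mean of both arrays. These are not firm minimums, since array 2 alone gave 1.09-fold in FeD and array 4 alone 1.26-fold in FeO. Without background subtraction the FeO mean log2 ratio was -0.28. With the scanner's processed signals the mean log2 ratios were -1.53 and -2.06, against -0.19 and -0.36 here, so the size depends on how the background was handled. No pool on any array had Mtf1 well above background, so it did not pass the filter and is given no fold.

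**Figure D4:**
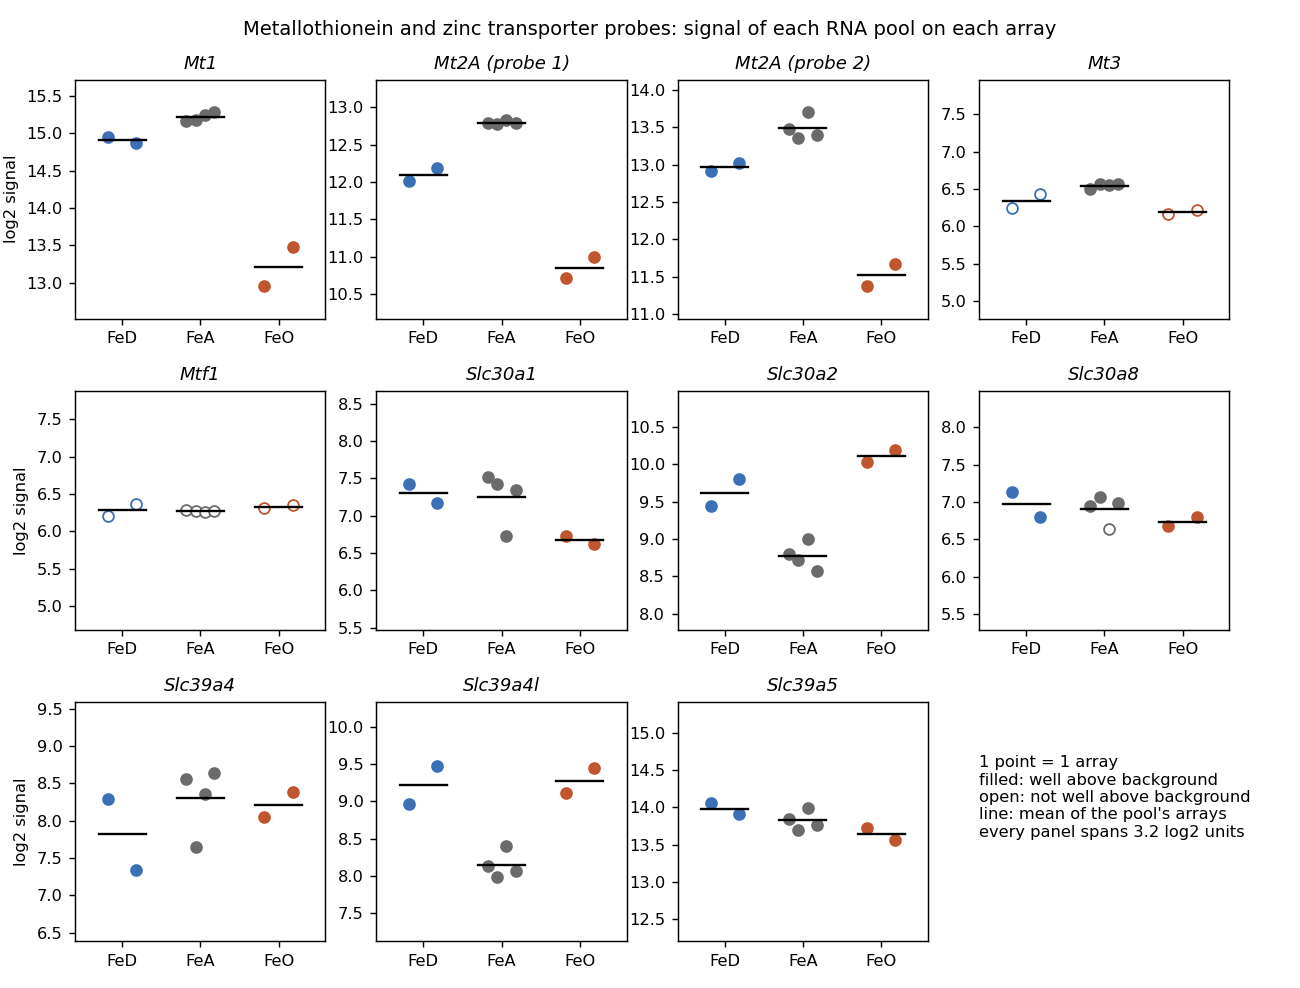
Normalised log2 signal of each probe (vertical axis, the same span in every panel) in the FeD, FeA and FeO pools. Each point is 1 array, open where the probe was not well above background, and lines are means. FeO points lie far below FeA for Mt1 and Mt2A and above FeA for Slc30a2 and Slc39a4l.

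Among the exporters, Slc30a1 encodes ZnT1, which moves zinc across the plasma membrane. It read 7.52, 7.43, 6.73 and 7.34 in FeA, 7.43 and 7.18 in FeD, and 6.73 and 6.63 in FeO. The FeA value of array 3 was the low one, at the level of the FeO pool on the same array, so FeO overlapped FeA through that array. The log2 ratios were -0.09 and -0.25 in FeD and 0.0034 and -0.71 in FeO, a wider gap than the 90th percentile over all probes, which was 0.622. The FeO mean was -0.36 here and -1.03 with the scanner's processed signals, so no size is given for it.

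Slc30a2 encodes ZnT2, which loads zinc into secretory vesicles and zymogen granules. It read 8.79, 8.72, 8.99 and 8.57 in FeA, 9.44 and 9.80 in FeD, and 10.02 and 10.19 in FeO. All diet values were above all FeA values, and both FeO values were above both FeD values. The log2 ratios were 0.65 and 1.08 in FeD, with a mean of 0.86 ± 0.30, and 1.03 and 1.62 in FeO, with a mean of 1.32 ± 0.41 (SD, n = 2 arrays). Counted from the highest, Slc30a2 ranked 46 of 15748 genes in FeD and 44 of 16448 in FeO. Thus Slc30a2 and the metallothionein genes lay on opposite sides of FeA in both diets.

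Slc30a8 encodes ZnT8, the zinc transporter of insulin granules. Its signals were dim, between 6.64 and 7.06 in FeA, 6.80 and 7.14 in FeD, and 6.68 and 6.80 in FeO, and the FeA pool was not well above background on array 3. The ratios changed sign between the arrays of each comparison, 0.18 and -0.26 in FeD and 0.03 and -0.19 in FeO. No direction can be given for it. The beta cell markers with a ratio, such as Ins1 and Iapp, were lower than in FeA on both arrays for 7 of 7 genes in FeD and 6 of 7 in FeO.

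Among the importers, Slc39a4 encodes ZIP4, the main zinc importer of the intestinal epithelium. It read 8.56, 7.65, 8.36 and 8.64 in FeA, 8.29 and 7.34 in FeD, and 8.05 and 8.38 in FeO. The level on array 2 was low in both pools, which made the ranges overlap, but the ratios within arrays were close to each other, -0.27 and -0.31 in FeD and -0.31 and -0.26 in FeO. Their means were -0.29 ± 0.026 and -0.28 ± 0.035 (SD, n = 2 arrays), or 1.22-fold lower in both diets. With the scanner's processed signals they were -0.45 and -0.47.

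Slc39a4l takes its name from the symbol column of the authors' tables. It had no match in the RefSeq table used here, so its identity is not settled. It read 8.13, 7.99, 8.40 and 8.06 in FeA, 8.96 and 9.47 in FeD, and 9.11 and 9.44 in FeO. Every FeD and FeO value lay above the FeA values, and the FeD and FeO values overlapped each other. The mean log2 ratio was 1.15 ± 0.46 in FeD and 1.05 ± 0.48 in FeO (SD, n = 2 arrays). In both, the array with the diet in Cy3 gave the larger ratio, 1.48 against 0.83 and 1.38 against 0.71. Each gap was wider than the 90th percentile over all probes that passed, which was 0.589 in FeD and 0.622 in FeO. From the highest, Slc39a4l ranked 11 in FeD and 96 in FeO. Slc39a4 and Slc39a4l, alike in name, thus lay on opposite sides of FeA in both diets.

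Slc39a5 encodes ZIP5, which takes up zinc on the basolateral side of acinar and intestinal cells. It read 13.85, 13.70, 13.99 and 13.76 in FeA, 14.05 and 13.91 in FeD, and 13.72 and 13.57 in FeO. Across arrays the diet values overlapped FeA, but within each array the FeD pool was above FeA (log2 ratios of 0.20 and 0.21) and the FeO pool below it (-0.27 and -0.19). Of the 10 probes of these genes that passed the filter, only that of Slc39a5 had opposite signs in the diets on both arrays of each. This is near the share over all 17010 probes that passed in both comparisons, 8.22%, so nothing is read from it. The Slc39a5 ratios, 1.16-fold higher and 1.17-fold lower, were small, and with median centring the FeO mean was -0.044.

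Of the 19 other zinc transporters, all on the array, 17 passed the filter and none reached a log2 ratio of 1 in either diet. Slc30a10 and Slc39a2 did not pass. In FeD, 2 were higher and 8 lower on both arrays, with a median log2 ratio of -0.08, and in FeO 3 were higher and 6 lower, with a median of -0.03. By the brightest probe of each gene, the highest in both was Slc39a10, an importer of the plasma membrane that MTF-1 represses, with ratios of 0.59 and 0.26 in FeD and 0.97 and 0.63 in FeO. It was followed by Slc30a3 (mean 0.11) and Slc39a12 (0.10, with opposite signs on the arrays) in FeD. In FeO it was followed by Slc30a4 (0.33) and Slc39a1 (0.32, with opposite signs on the arrays). A second, dimmer Slc39a1 probe disagreed with the first, at 0.48 and 0.28 in FeD and 0.64 and 0.58 in FeO, and by it Slc39a1 would come next after Slc39a10 in both diets. The lowest were Slc39a8 (-0.32), Slc39a13 (-0.20) and Slc39a11 (-0.15) in FeD, and Slc39a9 (-0.21), Slc39a3 (-0.18) and Slc39a13 (-0.16) in FeO.

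**Figure D5:**
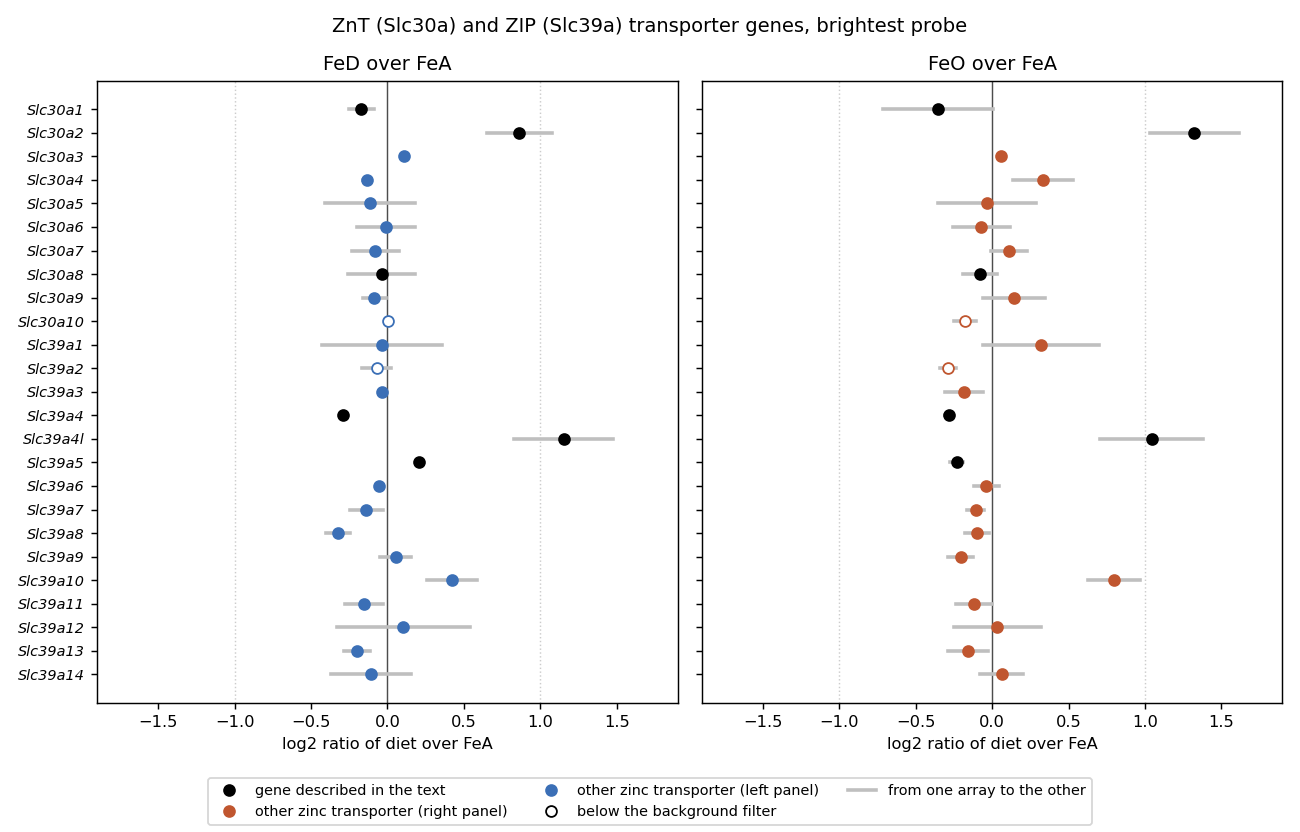
Mean log2 ratio over FeA (points) of each ZnT and ZIP gene by its brightest probe, with grey bars from one array to the other, for FeD (left) and FeO (right). Black points are the transporters described one by one, and open points did not pass the background filter. Slc30a2 and Slc39a4l stand to the right, and in FeO Slc39a10 comes next at 0.80.

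Other genes that MTF-1 binds or regulates, a list of 7 that includes Slc39a10, were higher on both arrays for 4 genes and lower for 1 in FeD (median 0.08), and higher for 3 and lower for 1 in FeO (median 0.27). Gclc, which makes the first step of glutathione synthesis, gave 0.08 and 0.08 in FeD and 0.28 and 0.26 in FeO. The lowest was Ndrg1 in FeO, at -0.81 and -0.35. By the mean of the arrays, all 7 stayed below a log2 ratio of 1 in size in both diets. On array 2 alone Selenow was at 1.26 in FeD, against 0.33 on array 1.

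Metallothionein genes are also induced by glucocorticoids and in the acute phase, so genes of both kinds were read beside them. Of 10 glucocorticoid-induced genes, 8 passed in FeD, with 2 higher and 4 lower on both arrays (median -0.02), and 9 passed in FeO, with 3 higher and 5 lower (median -0.15). Fkbp5, a common readout of the glucocorticoid receptor, gave -0.40 and -0.27 in FeD and -0.29 and -0.13 in FeO. Of 10 acute-phase and IL-6 genes, the 5 that passed in FeD were all higher on both arrays (median 0.34), and in FeO 7 of 8 were (median 0.35), with Lcn2 at 0.78 and 1.51. Fgg, A2m and Hp in FeO, Zbtb16 in both diets and Dusp1 in FeD passed the filter through a single pool. Nothing is read from their direction. By the mean of the arrays, none of the genes of these lists that passed was lower by a log2 ratio of 1, and Lcn2 in FeO was the only one higher by as much. Their part in the metallothionein values was not tested.

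Markers of the cell types that a pancreas sample can hold were read in the same way. Acinar markers, which define the labelled tissue, were well above background, with 2 of 10 higher and 1 lower on both arrays in FeD (median -0.06) and 1 of 8 higher and 5 lower in FeO (median -0.38), where Cpa1 and Prss1 had outlier spots on array 4. Their summed signal was 1591617 to 1723007 in FeO against 1794029 to 2303827 in FeA on the same arrays, and 2594191 to 2623546 in FeD against 2318114 to 2433614.

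Intestinal epithelium markers, a tissue rich in metallothionein, were lower on both arrays for 8 of 9 genes in FeD (summed signal 2068 to 2129 against 5314 to 5601 in FeA) and 7 of 9 in FeO (1589 to 1783 against 5457 to 5521), and Slc5a1 did not pass. Lymph node markers were higher for 8 of 8 in FeD (10255 to 10525 against 5674 to 5874) and lower for 5 of 7 in FeO (2797 to 3243 against 5664 to 5738). Of the intestinal and lymph node genes, Cdh17 and Fabp2 in both diets, and Muc2, Ms4a1 and Cr2 in FeD, passed through a single pool. Nothing is read from their direction. Adipocyte markers were higher for 2 of 6 and lower for 3 in FeD (6632 to 7405 against 7062 to 9448) and higher for 5 of 6 in FeO (33082 to 34458 against 8972 to 9879). The intestinal sums were below FeA in both diets, beside mean Mt1 ratios of -0.26 in FeD and -2.05 in FeO, and a link between them was not tested.

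Beta cell markers summed to 133672 to 143922 in FeD against 174572 to 204308, and to 112399 to 149530 in FeO against 223941 to 224337. Other islet markers summed to 19918 to 21734 in FeD against 18532 to 21282 and to 11854 to 12579 in FeO against 22273 to 24987, with 4 of 5 lower on both arrays. Duct markers were 2369 to 2686 in FeD against 2411 to 2474 and 1955 to 1989 in FeO against 2293 to 2513. Mesothelium markers were 1745 to 2042 in FeD against 1669 to 1756 and 2949 to 3604 in FeO against 1690 to 1991. The part of these cell types in the values of the 10 genes was not tested.

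The pattern of Mt1 over the 4 array ratios was compared with 15437 probes well above background in both pools on every array. The nearest were both Mt2A probes, with root mean square differences of 0.171 for the second and 0.328 for the first on the log2 scale. Next came LOC362795 (0.352), a transcript that the array lists only by an Ensembl identifier (0.386), and RT1-Db1 (0.427), a class II histocompatibility gene. Their mean log2 ratios in FeO were -2.21, -1.53 and -1.60, and in FeD -0.67, -0.24 and -0.32. Thus the Mt2A probes ranked nearest to Mt1, over 4 arrays that share 1 FeA pool, 1 slide and 1 scan. LOC362795 came close behind the first Mt2A probe, so the order of these is not firm.

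The arrays held 42877 gene spots each, with 61.9% to 71.5% of spots well above background per channel and a median spot signal of 115 to 222.5.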

How the data were processed

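Pancreatic RNA of 6 male rats per diet was pooled and hybridised to 2-colour Agilent arrays with the dyes swapped. The deposited intensity values came from Agilent Feature Extraction 10.1.1.1, which the submitters' processing notes name, and the median spot and local background signals used here carry no correction. The log2 fold changes, p-values and q-values in the authors' deposited tables are their own comparisons, so only the symbol column of those tables was used.

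The steps in limma 3.58.1 under R 4.3.3 were normexp background correction with an offset of 50, removal of control spots, loess within each array, outlier spots left out (722, 938, 764 and 735 on arrays 1 to 4) and spots of a probe averaged. The offset compresses ratios of dim probes. Signals of single pools are channel values after loess and Aquantile scaling between arrays. A pool counted as well above background for a probe when over 50% of its spots carried the scanner's flag, and the probe passed the filter when this held on both arrays for the diet pool or for the FeA pool. For a gene below that level in one pool, the fold was taken against its own signal or, if higher, the dimmest signal the array flagged as detected. Such a fold is not a firm minimum. A gene was counted past a size when the mean log2 ratio of any of its probes reached 2, or 1 where stated, with the same sign on both arrays.

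No test of the diets was made, since each is 1 pool, hybridised on both arrays of its comparison. The methods' t-test and limma, alone or with Benjamini-Hochberg adjustment, were added to the size criterion as alternatives, and they compare RNA pools. Scripts were tested on simulated data. The number of arrays limits the precision. Symbols came from RefSeq by accession for 18004 probes, from the authors' tables for 4945 and from the array for 7418. Promoter sequences are those of RefSeq on the build GRCr8.

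Described were all 10 genes, the 3 highest and 3 lowest of the other zinc transporters per comparison, the 5 probes most like the gene with the largest ratio, and members of the lists given. One further list is not reported here. The genes, lists and criteria were chosen with earlier results of these data known. Tables and plots were made in Python 3.11.15 (matplotlib 3.10.9, numpy 2.4.6, pandas 2.3.3).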

Additional observations from a re-analysis of the deposited data

Results flagged for a closer look

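Slc39a5 was higher than in FeA on both FeD arrays and lower on both FeO arrays, with a difference between the mean log2 ratios of 0.44 (FeD minus FeO). Slc30a4, a ZnT transporter of intracellular vesicles, went the other way, with a difference of -0.47. In neither case was the difference tested, since each diet was 1 pool, and both comparisons used the same FeA pool. Of 17010 probes that passed the filter in both comparisons, 8.22% had opposite signs in the 2 diets on both arrays of each.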

How the results depend on the processing

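Median centring in place of loess, or the methods' t-test with Benjamini-Hochberg adjustment added to the size criterion, left 0 of the 2 genes lower in FeO past a log2 ratio of 2. The adjusted t-test left 0 probes of the whole array in either comparison, so its 0 says nothing about these genes. That t-test set aside the pairing of pools within an array. Under the t-test without adjustment and under limma with adjustment the count was 2. With the scanner's processed signals it was 3, Mt3 being the added gene. Without FeO replicate 1 or 2 it ranged from 0 to 2. At a log2 ratio of 1 the genes higher numbered 1 in FeD and 2 in FeO, against 0 at 2. The other counts at 2, those of the 19 other zinc transporters included, were the same as reported under every alternative run. The counts at 1 were not rerun under the other settings. Without background subtraction Slc39a4l in FeO fell to 0.98, and with the scanner's processed signals Slc30a2 in FeD rose to 1.05.

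Aquantile scaling leaves ratios as they are. Of 110 values (22 member ratios under 5 other ways of making the ratio), 107 had the reported sign and 90 lay within 1 SD of the 2 arrays. The exceptions in sign were Mtf1, which was below background, and Slc30a8 in FeD. For Mt1 in FeO the ratio ranged from -2.12 to -1.85, for the Mt2A probes from -1.998 to -1.86 and from -2.07 to -1.91, and for Slc30a2 from 1.28 to 1.43. Signal over background limits Mt3, Mtf1 and Slc30a8. Each array holds the diet and the FeA pool together, so every ratio is paired within its array. No pairing of arrays between the comparisons was possible. The replicate numbers only name the arrays, and no label pairs arrays of one comparison with those of the other.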
